A study of Mus musculus with 4 samples.

Results

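The filaggrin group is a run of 4 genes of the mouse epidermal differentiation complex, Crnn, Flg2, Flg and Hrnr, which lie side by side on the plus strand of chromosome 3. Its contacts were taken from 5C libraries, in which fragments that met in the fixed nucleus are ligated and read out by pairs of probes. A fragment was counted to the group when its midpoint lay in the 225 kb interval chr3:92945000-93170000 (mm9), above its start and up to its end, and a contact when at least 1 of its fragments did so. This gave 37 of the 712 fragments of the locus, 19 forward and 18 reverse. Keratinocyte libraries 1 and 2 listed 10233 and 7803 such contacts among 95692 and 67210, and thymocyte libraries 1 and 2 listed 5248 and 6185 among 45861 and 53420. All 4 libraries shared 2923 of them, among 23395 in the whole locus. The keratinocytes came from the epidermis of newborn C57BL/6 mice and were kept for 15 hours at 32 °C in low calcium medium. The thymocytes were the total T cell suspension of thymi of newborn C57BL/6 mice. Both were fixed with 1% formaldehyde for 10 minutes, and no genetic change is described for either. The keratinocyte medium held hydrocortisone, insulin, EGF, cholera toxin and antibiotics among its additions, and these cells were plated on collagen. For the thymocytes the study names RPMI medium with serum and mercaptoethanol. Each cell type has 2 libraries, and the labels do not say whether these came from separate animals, so the p-values below measure the spread between libraries only.

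The epidermal differentiation complex holds the genes that keratinocytes switch on as they leave the basal layer and cornify. Crnn (cornulin), Flg2 (filaggrin-2), Flg (filaggrin) and Hrnr (hornerin) belong to its S100 fused-type genes, whose proteins join an S100-like calcium-binding head to long tandem repeats. Filaggrin is made as a large precursor, stored in keratohyalin granules and cut to units that bundle keratin filaments and are later broken down to the amino acids that keep the stratum corneum moist. Thymocytes, the developing T cells of the thymus, do not cornify. The contact tables used here hold no expression values.

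Crnn occupies chr3:92948709-92953393, Flg2 chr3:93001195-93025298, Flg chr3:93077463-93097608 and Hrnr chr3:93123671-93137492 (mm9). From 1 transcription start to the next there are 52.5 kb, 76.3 kb and 46.2 kb. The promoter sequences are shown because the contacts of the promoter fragments are compared below. They run from 110 bases before to 20 bases after the RefSeq start (GRCm38.p6), and each matched mm9 exactly. Capitals mark matches, searched on both strands, to the TATA motif TATANAA and to TGANTCA, where N is any base. The TGANTCA matches in these windows all read TGAATCA, and binding of any factor to them was not tested. Both motifs were chosen after the sequences had been seen.
Crnn: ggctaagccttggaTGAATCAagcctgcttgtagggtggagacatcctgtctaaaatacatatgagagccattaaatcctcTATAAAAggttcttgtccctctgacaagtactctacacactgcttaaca
Flg2: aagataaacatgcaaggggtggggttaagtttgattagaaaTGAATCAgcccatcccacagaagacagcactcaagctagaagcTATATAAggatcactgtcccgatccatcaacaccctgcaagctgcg
Flg: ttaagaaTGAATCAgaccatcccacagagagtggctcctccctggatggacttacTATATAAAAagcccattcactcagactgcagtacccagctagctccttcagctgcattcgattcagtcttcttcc
Hrnr: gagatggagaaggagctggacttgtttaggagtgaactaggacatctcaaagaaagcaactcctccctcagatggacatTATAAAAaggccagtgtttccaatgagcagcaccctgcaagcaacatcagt
All 4 windows held TATANAA, which 5.18% of the 32851 RefSeq promoter windows of that length held. Crnn, Flg2 and Flg also held TGANTCA, against 3.58% of all windows. In Flg 2 matches of the TATA motif overlap, and the first begins 55 bases before the start, against 29, 26 and 31 bases in Crnn, Flg2 and Hrnr.

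Each fragment is read by 1 probe at its 3′ end, so the probe decides what a contact of that fragment can report. The locus-specific parts of the probes are given for the fragments that hold the 4 transcription starts, with the part of the HindIII site that they carry in capitals. Forward probes read the plus strand and reverse probes the minus strand.
Crnn, fragment F1025, chr3:92947365-92949612: tcccttcattggttttctagatgctacAAG
Flg2, fragment R1042, chr3:92999574-93004115: CTTaaatgaacctagatggagaaggaacag
Flg, fragment F1063, chr3:93076901-93099719: tggggaaggcctttgtctacagagccgAAG
Hrnr, fragment R1069, chr3:93114547-93126664: CTTggcagtaatctttgccaataattttat
F1025 and R1069 hold the starts of Crnn and Hrnr. R1042 holds the Flg2 start, and the gene runs on through F1044, R1045 and F1046. F1063 holds all of Flg together with the pseudogene Rplp0-ps1, so contacts of the Flg promoter and of the Flg body cannot be told apart on it. The fragments F1061, within 5 kb before the Flg start, and R1066, after the gene, take part in 5 of the called contacts described below.
F1061, chr3:93068056-93074601: ctgagttctacctgctctagcactatgAAG
R1066, chr3:93104686-93109404: CTTtgatactttattcatatacatccttct

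The 4 genes were not read equally well. F1025 was listed in 316, 279, 192 and 215 contacts by keratinocyte libraries 1 and 2 and thymocyte libraries 1 and 2. F1063 was listed in 305, 54, 32 and 80 contacts. R1069 was listed by keratinocyte library 1 alone, in 265 contacts, so the Hrnr start has no value in any comparison between cell types. In all, 9 of the 37 fragments were listed in under 100 contacts by at least 1 library. Contacts missing from a table were treated as unmeasured, not as 0. The depth in reads is unknown, and every comparison of cell types below rests on contacts present in all 4 tables, unless stated.

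Within the interval, contact frequency fell far more steeply with distance in thymocytes than in keratinocytes. All 4 libraries listed 174 contacts with both fragments in the interval. Over the 40 of these under 20 kb apart, keratinocytes had a mean corrected 5C frequency of 5331 and 4785 and thymocytes of 28701 and 35525, each value standing for 1 library, in the order of their numbers. Both thymocyte libraries lay far above both keratinocyte libraries at this range. Over the 61 contacts at least 100 kb apart the order had turned, with 678.7 and 381.7 in keratinocytes and 283.1 and 281.1 in thymocytes. The expected frequency, which the authors fitted to distance over the whole locus, had the same shape. Under 20 kb it was 5012 and 4325 in keratinocytes and 23903 and 30006 in thymocytes, and at least 100 kb apart it was 565.4, 332.4, 244.4 and 251.7. Over all 174 contacts, log2 of the mean frequency was 10.7 ± 0.234 in keratinocytes and 12.9 ± 0.207 in thymocytes (SD, n = 2 each), a difference of -2.19 (exact permutation test, two-sided, p = 0.333). With 2 libraries against 2, 0.333 is the smallest p that this test allows. Without the contacts under 20 kb, the difference turned to 0.47 in favour of keratinocytes. The median frequency of the 174 contacts had the opposite order, with 978.3 and 558.1 in keratinocytes and 516.0 and 494.4 in thymocytes. With the libraries scaled to the same total over the shared contacts of the locus, the difference in log2 of the mean was -1.12.

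**Figure D1:**
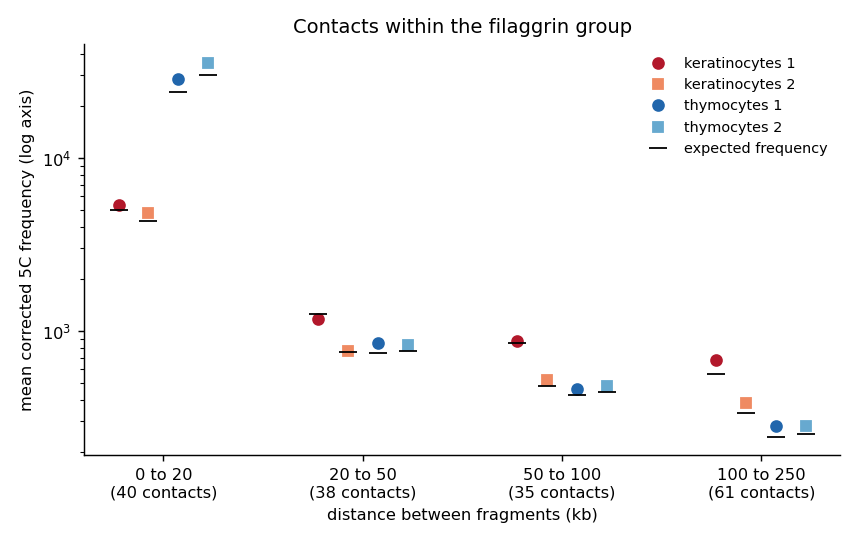
Mean corrected 5C frequency (log axis) of the 174 contacts within the filaggrin group against the distance between their fragments, with 1 coloured point for each library and a black bar for the mean expected frequency of the same contacts. Under 20 kb the thymocyte libraries reach 28701 and 35525 and the keratinocyte libraries 5331 and 4785, while from 100 kb on both keratinocyte libraries lie above both thymocyte libraries.

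The Z score removes this distance effect: it is the frequency minus the expected frequency, divided by the standard deviation at that distance. Over the 174 internal contacts keratinocytes had a mean Z score of 0.13 and 0.20 and thymocytes of 0.37 and 0.30. Both keratinocyte libraries lay below both thymocyte libraries. The means were 0.164 ± 0.0481 and 0.336 ± 0.0509 (SD, n = 2 each), a difference of -0.17 (exact permutation test, two-sided, p = 0.333). Frequencies were above expectation for 93 and 102 of the 174 contacts in keratinocytes and for 122 in each thymocyte library. Over the whole locus the mean Z score of the contacts shared by all libraries was 0.51 and 0.58 in keratinocytes and 0.61 and 0.70 in thymocytes, so the interval lay below the locus in all 4 libraries. At matched distance, in bins of 50 kb, the internal contacts lay below those of the rest of the locus by -0.47 and -0.40 in keratinocytes and by -0.24 and -0.38 in thymocytes. The 2 cell types did not overlap in this difference either (-0.12 between them, exact permutation test, two-sided, p = 0.333). On the scale of log2 observed over expected frequency, the internal contacts averaged -0.19 and 0.035 in keratinocytes and 0.11 and 0.079 in thymocytes (difference -0.17, exact permutation test, two-sided, p = 0.333).

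The order of the cell types was not the same at every distance. Over the 139 contacts of the group under 50 kb, the mean Z score was -0.24 and 0.10 in keratinocytes and 0.48 and 0.47 in thymocytes. The other contacts of the locus at this range averaged 0.60, 0.53, 0.44 and 0.56 in the same order of libraries. From 1000 to 2000 kb the order of the cell types was the opposite, with 0.78 and 0.64 in keratinocytes and 0.45 and 0.60 in thymocytes over 869 contacts of the group. From 2000 to 3500 kb thymocytes were higher again, with 0.54 and 0.68 in keratinocytes and 0.77 and 1.02 in thymocytes. Both thymocyte libraries were also higher in each step between 50 and 1000 kb. The other contacts of the locus had this order from 50 to 250 kb, at 0.56, 0.65, 0.76 and 0.78. They also had it from 1000 to 2000 kb, at 0.49, 0.57, 0.70 and 0.89, where the group had the opposite order. In the remaining steps the cell types overlapped for the other contacts.

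Single contacts were compared with the limma test on Z scores, fitted to all 23395 contacts. After Benjamini-Hochberg adjustment it called 0 of the 2923 contacts of the group, beside 0% of the locus, and the lowest adjusted p of the group was 0.767. At an unadjusted p under 0.05 there were 139 contacts of the group, 70 higher in keratinocytes and 69 higher in thymocytes. That is 4.76% of the group and 5.11% of the locus. Counted by libraries that did not overlap, 526 contacts of the group were higher in both keratinocyte libraries (18.0%, beside 21.1% of the locus) and 685 in both thymocyte libraries (23.4%, beside 19.1%). Among the internal contacts these were 19 and 47 of 174, or 10.9% and 27.0%.

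Between the genes, the contacts split by partner. Each fragment was given to the nearest of the 4 gene bodies, and 6 of the 10 pairs were higher in both thymocyte libraries, 1 in both keratinocyte libraries, and 3 overlapped. This count was not made for gene pairs outside the group. The shared contacts of the whole locus had the same order, at 0.51 and 0.58 in keratinocytes and 0.61 and 0.70 in thymocytes. The contacts between Crnn and Flg2 (35) had a mean Z score of -0.011 and 0.040 in keratinocytes and 0.36 and 0.29 in thymocytes. Those among the Crnn fragments themselves (16) had 0.015 and 0.35 against 0.56 and 0.64. Crnn with Flg (16 contacts) was the pair that was higher in keratinocytes, with 1.42 and 0.42 against 0.36 and 0.36. Keratinocyte library 1 stood apart there, and library 2 lay just above the thymocytes. Flg with Hrnr (10 contacts) was below expectation in every library, with -0.47 and -0.46 in keratinocytes and -0.30 and -0.16 in thymocytes. Flg2 with Flg (17) had -0.11 in keratinocyte library 1 and 0.67, 0.80 and 0.69 in the other libraries. No pair passed adjustment (exact permutation tests, two-sided, lowest p = 0.333, adjusted 0.476 over 10 pairs).

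**Figure D2:**
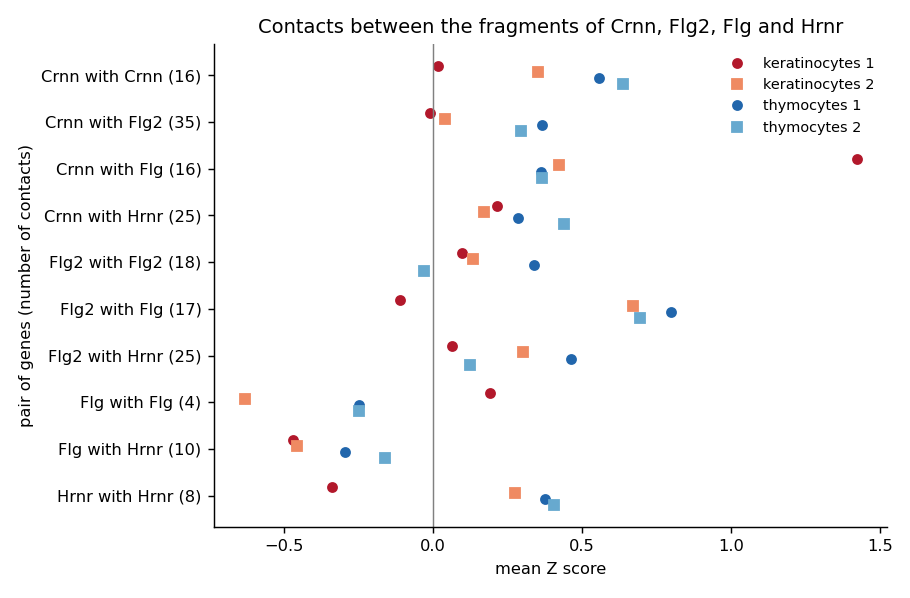
Mean Z score of the contacts between the fragments nearest to each pair of genes, with the number of contacts in brackets, 1 point for each library and a line at 0, the expected frequency. Thymocyte points lie to the right of both keratinocyte points in 6 of 10 pairs, and Crnn with Flg is the pair with both keratinocyte points to the right. Gene pairs outside the group were not counted.

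A contact was called in a cell type when each of its 2 libraries had a deposited q-value under 0.05 for it. Of the internal contacts, 0 of the 228 that both keratinocyte libraries list were called in keratinocytes, beside 1.99% of the locus. In thymocytes 5 of 204 were called, or 2.45%, beside 4.03% of the locus, so both shares lay below that of the locus. They join fragments at or near the starts of Crnn, Flg2 and Flg. R1042, with the Flg2 start, and F1061, beside the Flg promoter, met at 64 kb with Z scores of 1.32 and 1.43 in keratinocytes and 3.17 and 4.33 in thymocytes. R1026, the body of Crnn, met the same F1061 at 113 kb with 1.43 and 3.07 against 3.82 and 3.01, so the keratinocyte and thymocyte libraries overlapped. R1040, before Flg2, met F1061 at 74 kb with 1.63 and 3.94 against 6.88 and 5.78. F1027, after Crnn, met R1042 at 43 kb with -0.52 and 0.64 against 4.41 and 3.37. The neighbours R1026 and F1027 had 0.25 and 1.64 against 3.59 and 4.13, with corrected frequencies of 9996 and 14914 in keratinocytes and 136335 and 177870 in thymocytes. In 3 of the 5 contacts F1061 was a partner.

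Around the middle of the interval, contacts that pass over a position stood further above their expected frequency in keratinocytes. For positions 15 kb apart, the contacts with 1 fragment on either side and both within 150 kb were averaged as log2 of the mean observed over expected frequency. They include contacts with fragments outside the interval, among them the flank with enhancer E9 described next, so the 2 results share contacts. At 75 kb from the start of the interval, in the Flg2 gene, it was 0.59 and 0.33 in keratinocytes and 0.19 and 0.20 in thymocytes (152 contacts). At each position from 45 to 135 kb both keratinocyte libraries lay above both thymocyte libraries. At the start of the interval the order was the opposite, with -0.19 and -0.026 in keratinocytes and 0.15 and 0.18 in thymocytes (195 contacts). At its end, 225 kb on, it was -0.29 and 0.059 against 0.15 and 0.19 (102 contacts). The lowest position was at 225 kb in keratinocyte library 1 and at 0 kb in library 2, and at 195 and 180 kb in thymocytes, where the profile varied little, from 0.12 to 0.23 in library 1. These positions moved with the window: within 100 kb the lowest lay at 180, 0, 150 and 150 kb, and within 250 kb at 0, 0, 30 and 30 kb.

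**Figure D3:**
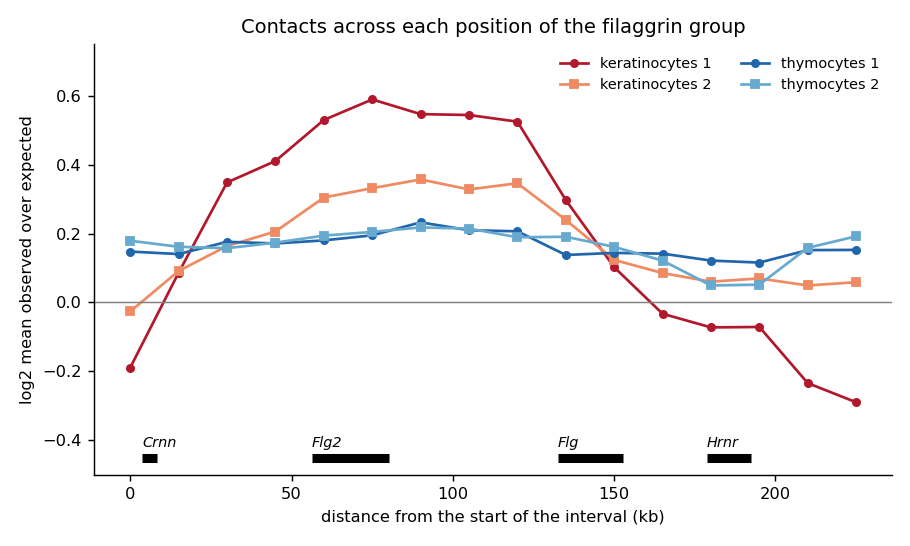
Log2 of the mean observed over expected frequency of contacts that cross each position (both fragments within 150 kb of it) against distance from the start of the interval in kb, with 1 line for each library and black bars for the gene bodies. The keratinocyte lines rise to 0.59 and 0.36 over and after Flg2 and fall to or below 0.1 at both ends, while the thymocyte lines stay between 0.049 and 0.23.

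The flank just before the interval holds the putative enhancer E9, chr3:92928112-92934551, which the study defined by H3K4me1 and H3K27ac in keratinocytes. According to the paper, earlier work had found E9 by sequence homology and seen reporter activity in cultured mouse keratinocytes. The paper also lists the Flg promoter region among the contacts of E9 in keratinocytes. The contacts of the flank with the group changed direction along the interval. With the Crnn fragments (44 contacts) the mean Z score was -0.44 and 0.11 in keratinocytes and 0.76 and 0.76 in thymocytes. With Flg2 (48 contacts) it was -0.15 and -0.17 against 0.19 and 0.40. With Flg (23 contacts) the cell types had changed places, with 2.57 and 1.82 against 0.69 and 0.39. With Hrnr (37 contacts) keratinocyte library 1 had 2.18 and the other 3 libraries 0.45, 0.11 and 0.57. The medians gave the same order of the cell types for Crnn, Flg2 and Flg (2.21 and 1.29 against 0.62 and 0.47 for Flg). By fragment, 8 of 8 of Crnn and 6 of 9 of Flg2 were higher in both thymocyte libraries, and 2 of 4 of Flg and 3 of 7 of Hrnr in both keratinocyte libraries. These splits were chosen after the values were seen, carry no test and were not made for other parts of the locus. Taken as 1 group, the 152 contacts with the flank had 0.75 and 0.36 in keratinocytes and 0.41 and 0.55 in thymocytes and overlapped (exact permutation test, two-sided, p = 1).

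**Figure D4:**
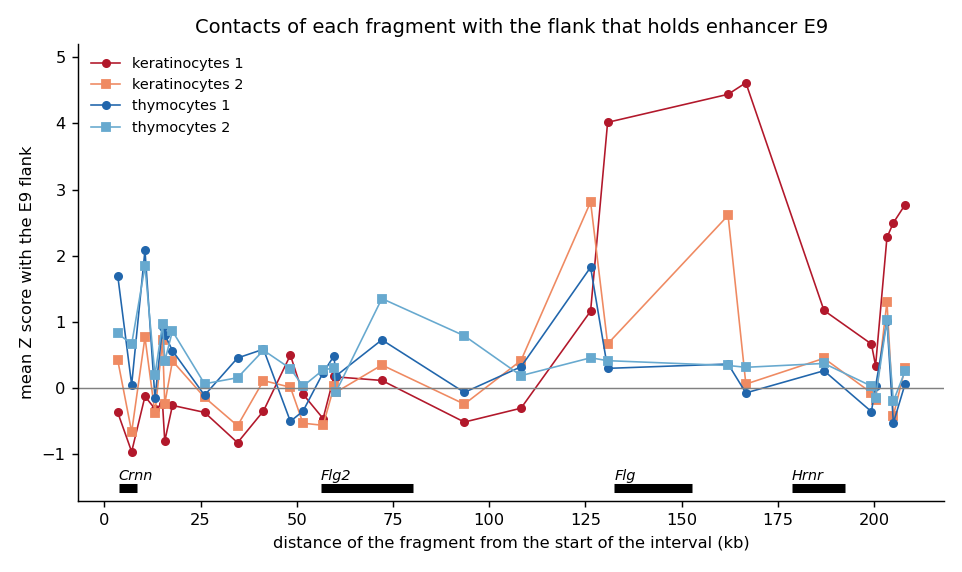
Mean Z score of the contacts of each fragment of the filaggrin group with the flank that holds enhancer E9, against the distance of the fragment from the start of the interval in kb, for fragments with at least 3 shared contacts. Each line is 1 library, and black bars are the gene bodies. Up to Flg2 the keratinocyte lines run mostly below the thymocyte lines, and at R1062 and R1066, on either side of Flg, they reach 4.02 and 4.44 in library 1 and 0.67 and 2.61 in library 2, above both thymocyte libraries.

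Of the 131 shared contacts of the group with fragments within 10 kb of E9, 3 were specific to keratinocytes (2.29%, beside 1.45% of the locus), and all 3 went to F1063 or R1066. R1066, after Flg, met F1016 (chr3:92921554-92926646), before E9, at 178 kb with Z scores of 6.59 and 6.52 in keratinocytes and 2.09 and 0.96 in thymocytes. Its corrected frequency in keratinocytes was 2247 and 1170 where 548.7 and 310.7 were expected. R1066 met F1020 (chr3:92930962-92932925), which overlaps E9, at 172 kb with 12.2 and 3.18 against -0.30 and 0.29. F1063, with Flg itself, met R1017 (chr3:92926647-92927381), next to E9, at 150 kb with 3.95 and 6.00 against 1.16 and 1.21. F1063 was sparsely listed, and its 5 contacts shared by all libraries had a mean Z score of 1.42 and 6.28 in keratinocytes and 2.28 and 1.39 in thymocytes. In all 3 contacts both keratinocyte libraries lay above both thymocyte libraries. Another 1 was specific to thymocytes (0.763%, beside 3.19% of the locus), between R1024 beside the Crnn start and F1039 before Flg2, with -0.15 and 0.99 in keratinocytes and 3.10 and 3.86 in thymocytes.
F1016: tcaatttcaacctggtgctctcttattAAG
F1020: ctgtgctctcatgccacattttctatgAAG
R1017: CTTgggggagttttctgattggaaataaaa
The probes of the flank above are shown with the HindIII bases in capitals, as before.

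Along the rest of the locus, the contacts with the nearer gene clusters were lower in keratinocytes. Over the 2749 contacts with 1 fragment in the interval the mean Z score was 0.38 and 0.37 in keratinocytes and 0.45 and 0.57 in thymocytes, without overlap (difference -0.13, exact permutation test, two-sided, p = 0.333). Over the whole locus the shared contacts had 0.51 and 0.58 against 0.61 and 0.70, the same order and also without overlap. By partner of the filaggrin group, 7 of 17 groups were higher in both thymocyte libraries, 3 in both keratinocyte libraries and 7 overlapped. Such counts were not made for other parts of the locus. With Lce3a to Gm4858 (219 contacts), late cornified envelope genes and their neighbours before the E9 flank, keratinocytes had -0.50 and -0.25 and thymocytes 0.076 and 0.22. All 4 genes of the group shared this order with that partner. Of its contacts 42.5% were higher in both thymocyte libraries and 3.65% in both keratinocyte libraries, beside 19.1% and 21.1% of the locus. With Lce6a to 2310050C09Rik (278 contacts), which holds the Lce1 genes, the values were -0.19 and 0.046 against 0.36 and 0.44. With Ivl, which codes for involucrin, an early protein of the cornified envelope, and Smcp (84 contacts), they were 0.11 and 0.053 against 0.62 and 0.56, again for all 4 genes.

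On the other side of the group, both nearest partners had the same order. With Rptn, Tchh and Tchhl1 (222 contacts), the next S100 fused-type genes, keratinocytes had 0.043 and 0.18 and thymocytes 0.28 and 0.35. With S100a11 and S100a10 (170 contacts) they had -0.049 and 0.12 against 0.29 and 0.39. The order also held at the far end of the first side. With S100a7a to Pglyrp4 (64 contacts), inflammatory S100 genes and antibacterial peptidoglycan recognition proteins, they had 0.56 and 0.53 against 1.23 and 1.46, but the medians of these contacts put keratinocytes higher by 0.35. With Nup210l to Chtop (175 contacts) they had 0.25 and 0.58 against 0.67 and 0.72.

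Keratinocytes were higher with Pglyrp3 to Lelp1, the group with Lor (171 contacts), at 1.07 and 0.97 against 0.59 and 0.85. Lor codes for loricrin, the main protein of the cornified envelope. They were higher too with S100a2 to S100a6 (17 contacts), at 0.73 and 0.93 against 0.037 and 0.69, and with Pogz to Pi4kb (178 contacts), at 0.46 and 0.50 against 0.21 and 0.40. When each library kept all contacts it lists, these 3 differences fell to -0.0074, -0.017 and -0.083. The gene-poor second topological domain (319 contacts) had 1.41 and 0.88 in keratinocytes and 0.66 and 0.95 in thymocytes, with overlap. Beyond S100a10, the groups Tdpoz2 to Gm4778 (128 contacts), Them4 to Selenbp2 (217) and Zfp687 to Setdb1 (114) overlapped too, at 0.96 and 0.53 against 1.02 and 0.73, 0.29 and 0.27 against 0.39 and 0.26, and 0.059 and 0.52 against 0.36 and 0.89. The Sprr genes (202 contacts), small proline-rich envelope proteins, had 0.31, 0.22, 0.30 and 0.36 in the 4 libraries. With the gene-poor domain, 29.8% of contacts were higher in both keratinocyte and 10.3% in both thymocyte libraries, beside 21.1% and 19.1% of the locus. These shares were 33.3% and 14.6% for the group with Lor, and 33.7% and 12.9% for Pogz to Pi4kb. They were 31.3% and 15.2% for Them4 to Selenbp2, but 8.27% and 33.5% for Lce6a to 2310050C09Rik. The medians of the gene-poor domain differed by 0.54 without overlap, but the means over all contacts each library lists differed by -0.0096. No partner passed adjustment (exact permutation tests, two-sided, lowest p = 0.333, adjusted 0.567 over 17 groups).

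**Figure D5:**
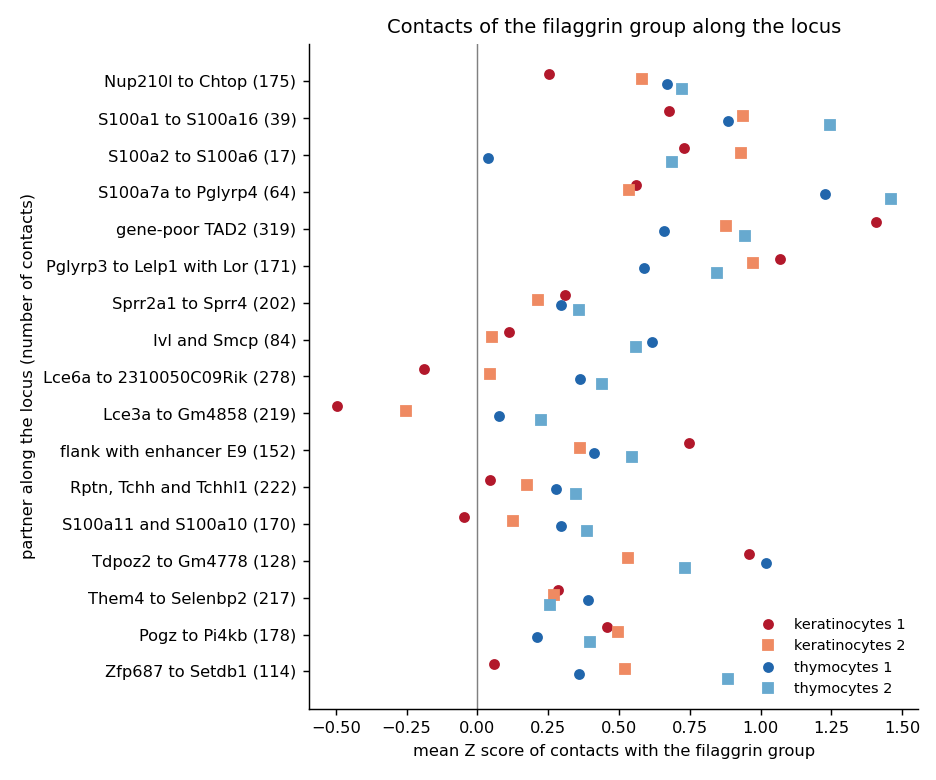
Mean Z score of the contacts between the filaggrin group and each partner group, in the order of the locus from top to bottom, with the number of contacts in brackets and 1 point for each library. From Ivl and Smcp to Lce3a to Gm4858 both keratinocyte points lie to the left of both thymocyte points, and for the group with Lor they lie to the right.

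Gene by gene, the mean Z score over all contacts of the nearest fragments was 0.26 and 0.39 in keratinocytes and 0.52 and 0.58 in thymocytes for Crnn (918 contacts). It was 0.445 and 0.330 against 0.455 and 0.527 for Flg2 (956), and 0.25 and 0.24 against 0.29 and 0.41 for Hrnr (746). For Flg (431) it was 0.56 and 0.56 against 0.52 and 0.72. Keratinocytes were lower without overlap for Crnn, Flg2 and Hrnr and overlapped for Flg (exact permutation tests, two-sided, lowest p = 0.333, adjusted 0.444 over 4 genes).

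The promoter fragments are those within 5 kb of a start. Crnn (269 contacts with its promoter fragments) had 0.45 and 0.32 in keratinocytes and 0.43 and 0.57 in thymocytes. Flg2 (525) had 0.46 and 0.34 against 0.47 and 0.36. Both overlapped. Flg (215) had 0.60 and 0.61 against 0.55 and 0.57, a difference of 0.041 that turned to -0.0059 without the sparsely listed fragments and to -0.084 without thymocyte library 1. Hrnr (89) had 0.072 and 0.013 against 0.34 and 0.23, but 88 of its contacts came from R1071, in the gene body, since the fragment with the start has no shared value. No promoter passed adjustment (exact permutation tests, two-sided, adjusted p = 0.667).

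Fragments of 1 gene did not move as a block. Of the 37 fragments 32 had a value in all libraries, and 11 were higher in both thymocyte libraries, beside 25.5% of the fragments of the locus with a value. They include F1027, after Crnn, with 0.050 and 0.31 in keratinocytes and 0.91 and 0.62 in thymocytes, and R1049, after Flg2, with 0.015 and 0.18 against 0.74 and 1.31. Another 4 were higher in both keratinocyte libraries, beside 13.9% of the locus. These were F1041 before the Flg2 start, R1062 before Flg, R1066 after Flg and R1078 near enhancer E10. R1066 had 0.70 and 0.18 in keratinocytes and 0.083 and 0.12 in thymocytes. R1062 had 0.67 and 0.44 against 0.35 and 0.37.

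Of the contacts that both libraries of a cell type listed, 78 of 6674 of the group were called in keratinocytes (1.17%, beside 1.99% of the locus) and 97 of 3795 in thymocytes (2.56%, beside 4.03%). Over the shared contacts, 23 were specific to keratinocytes (0.787%, beside 1.45% of the locus), 61 to thymocytes (2.09%, beside 3.19%), and 5 were common (0.171%, beside 0.581%). Each share lay below that of the locus. Of these 89 contacts, 73 spanned 500 kb or more. Promoter fragments of Flg2 had 4 contacts specific to keratinocytes, 9 to thymocytes and 3 common, those of Flg 6 and 10, those of Crnn 0 and 7, and those of Hrnr 0 and 1. Their shared contacts numbered 525, 215, 269 and 89, so that the share specific to keratinocytes was 0.762%, 2.79%, 0% and 0%, and that specific to thymocytes 1.71%, 4.65%, 2.60% and 1.12%. Flg was above the locus in both.

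The 5 common contacts reach the gene-poor domain, the group with Lor and the group with the Tdpoz genes. F1046, the body of Flg2, met R672 (chr3:91853724-91859573), in the group with Lor, at 1146 kb with 2.89 and 7.12 in keratinocytes and 9.30 and 11.8 in thymocytes. F1039, before Flg2, met the same R672 at 1120 kb with 3.00 and 12.03 against 2.67 and 6.22. F1046 met R471 (chr3:91275029-91277194) in the gene-poor domain at 1728 kb with 8.32 and 3.83 against 4.19 and 3.43. R1042, with the Flg2 start, met F1377 (chr3:94030720-94037613) at 1027 kb with 6.97 and 2.88 against 7.49 and 4.11. F1052, before Flg, met R285 (chr3:90786099-90789616) at 2264 kb with 2.71 and 8.53 against 3.77 and 4.31. In 4 of the 5 a fragment of Flg2 took part.

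The contacts with the highest mean Z score were all long or led to E9. In keratinocytes they were F1052, before Flg, with R126 at the S100a1 and S100a13 promoters (5.78 and 14.5, against 4.63 and -1.30 in thymocytes), F1052 with R13 (5.85 and 12.05, against 6.77 and -0.81), and R1066 with F1020 at E9. In thymocytes they were R1049, after Flg2, with F29 (10.8 and 16.7, against 2.87 and 1.61 in keratinocytes), F1055, before Flg, with R426 (2.43 and 23.5, against 0.76 and 1.25), and R1028, after Crnn, with F127 at the S100a1 and S100a13 promoters (6.12 and 19.6, against 0.56 and 0.98). The higher library was more than 2 times the lower in each of these except R1049 with F29. F1055 was listed in 23 and 55 contacts in thymocytes.

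The contacts with the widest gaps between the cell types were picked by that gap, which by itself favours libraries that agree. F1041, within 5 kb of the Flg2 start, and R1415, 1153 kb on in the group Them4 to Selenbp2, had 5.26 and 4.39 in keratinocytes and -1.25 and -0.77 in thymocytes. R1066 with F1016 and F1027 with R155, near S100a3 (3.42 and 4.87, against -0.43 and -0.90), were next. In the other direction R1049 with F99, near Npr1, had 0.097 and -1.27 in keratinocytes and 9.17 and 10.4 in thymocytes. F1070, in Hrnr, with R179 had 0.027 and -0.52 against 8.79 and 8.67, on a fragment listed in 24 and 28 contacts in thymocytes, and R1049 with F29 came next.

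Enhancer E10, chr3:93155763-93162396, lies in the interval after Hrnr, and no fragment with a listed contact overlaps it. The contacts of the group with the fragments within 10 kb of it (34) had 0.22 and 0.15 in keratinocytes and 0.27 and 0.24 in thymocytes. Of the 388 shared contacts in which the fragments near E10 took part, 0 were specific to keratinocytes and 6 to thymocytes (1.55%), both below the shares of the locus of 1.45% and 3.19%. One of these joined R1080 to F174, near the promoter of S100a8, at 2677 kb with -0.22 and -0.75 in keratinocytes and 6.16 and 14.2 in thymocytes. With E9 (131 contacts) the group had 0.82 and 0.49 against 0.36 and 0.51, and with E11, beside S100a11 and S100a10 (24 contacts), -0.63 and -0.32 against 0.27 and 0.20. With E13 (27 contacts) it had 0.49 and 0.46 against 0.027 and -0.030, a difference of 0.47 that turned to -0.18 over all contacts each library lists. Of the 11 enhancers or clusters with at least 3 shared contacts, 7 overlapped, 2 were higher in keratinocytes and 2 in thymocytes, and none passed adjustment (exact permutation tests, two-sided, lowest p = 0.333, adjusted 0.917). E16 had no shared contact.

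The other S100 fused-type genes did not share 1 order. Over all contacts of the promoter fragments, Rptn (repetin, 614 contacts) had 0.32 and 0.31 in keratinocytes and 0.36 and 0.63 in thymocytes. Tchh (trichohyalin, of hair sheath and tongue, 30 contacts) had 0.36 and 1.60 against 3.24 and 2.69. Tchhl1 (88 contacts) had 0.55 and 0.38 against 0.13 and 0.27. On this measure, which for Crnn adds the fragment R1024 just outside the interval, 4 of the 7 S100 fused-type genes were higher in both thymocyte libraries, 2 (Flg and Tchhl1) in both keratinocyte libraries, and Flg2 overlapped. Of 37 Lor, Ivl, Sprr and Lce genes, 27 had at least 3 shared contacts, and 10 were higher in thymocytes, 3 in keratinocytes and 14 overlapped. Of all 115 genes of the locus with a value the counts were 40, 11 and 64.

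By the mean absolute difference of this measure over the 4 libraries, the genes outside the group most like Flg were Bnipl (0.032), Ilf2 (0.036) and Mrpl9 (0.043), out of 111. Those most like Flg2 were Sprr1b (0.071), Lce3e (0.074) and Jtb (0.079). Those most like Crnn were B230398E01Rik (0.068), Sprr2f (0.075) and Sprr2g (0.10), and those most like Hrnr were Them4 (0.10), Lce3f (0.14) and Sprr1b (0.17). Flg and its 3 nearest genes had values between 0.49 and 0.63 in every library.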

How the data were processed

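Contact tables of 2 keratinocyte and 2 thymocyte 5C libraries were used. The authors aligned reads to the probe sequences (Bowtie and mm9, per the labels), removed outlying probes and single contacts, and corrected for probe coverage. The signal deposited for each contact is the corrected frequency, beside the expected frequency and its standard deviation. The score deposited is the Z score, which was recomputed exactly from these. The p-values and q-values deposited by the authors come from a Weibull fit in each library. The distance in kb is another deposited column.

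Gene starts on mm9 were set by exact matches of RefSeq promoters, and gene bodies by GENCODE vM1 and the study's gene list. Enhancer and probe positions are the study's. S100a3 sets the edge of the S100a2 group. Members, gene lists and named contacts were chosen with earlier results of these data known. Contacts were named by rule: those of promoter fragments and of fragments within 10 kb of E9 and E10 called in both libraries, the 3 highest called for each cell type, and the 3 widest gaps in each direction. Values need at least 3 shared contacts. Library means were compared by exact permutation, and contacts by limma 3.58.1 (lmFit, and eBayes with trend; R 4.3.3; adjusted p threshold 0.05). On simulated data 200 of 23395 contacts were shifted. Of these limma recovered 0 at a shift of 16 in Z score and 187 at 32, with 15 false calls at 32. The spread of each simulated contact was taken from its own 2 libraries per cell type. The simulation therefore does not settle which shifts limma could call in the real data. Python 3.11.15, pandas and scipy computed the rest. Alternatives were other q-value thresholds, adjustments, distances, summaries, scales, fragment and promoter rules, a replicate block and leaving out each library. Leaving out sparsely listed fragments was added after seeing the data. Contacts share fragments and are not independent.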

Additional observations from a re-analysis of the deposited data

How the results depend on the processing

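The Z scores within the group and to the rest of the locus were lower in keratinocytes under every alternative run. Without 1 library the difference ranged from -0.24 to -0.12 within the group, from -0.25 to -0.075 outside it, and from -0.21 to -0.046 at matched distance. In the replicate block, which takes keratinocyte minus thymocyte libraries of the same number, it stayed at -0.17 within the group and -0.13 outside (exact sign-flip permutation test, p = 0.5, the smallest it allows). The labels do not say that equal numbers mark paired libraries. With a replicate block, limma called 0 contacts of the group, with 128 at an unadjusted p under 0.05. The corrected frequency turned to 0.47 for contacts at least 20 kb apart and ranged from -2.37 to -2.00 without 1 library.

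As medians, the differences turned to 0.12 for S100a1 to S100a16, 0.35 for S100a7a to Pglyrp4, -0.26 for the E9 flank, 0.22 for Them4 to Selenbp2, 0.0995 for Zfp687 to Setdb1, 0.0033 for Flg2 with Flg, -0.084 for Flg with Flg, -0.17 for E9, -0.070 for E12 and 0.052 for E14. As log2 observed over expected they turned to -0.076 for the E9 flank, -0.086 for Flg with Flg, -0.013 for the Flg promoter and -0.16 for E15. Over all contacts each library lists they turned to -0.017 for S100a2 to S100a6, -0.0096 for the gene-poor domain, -0.0074 for the group with Lor, -0.045 for the E9 flank, -0.083 for Pogz to Pi4kb, -0.22 for the Flg promoter, 0.094 for E1, -0.22 for E4 to E7, -0.18 for E13 and -1.04 for E15. Without the sparsely listed fragments the Flg promoter turned to -0.0059. The cause of these turns was not tested.

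Without 1 library, the difference turned in some cases and ranged from -0.14 to 0.26 for the E9 flank, -0.096 to 0.51 for the gene-poor domain, -0.031 to 0.16 for Pogz to Pi4kb, -0.22 to 0.14 for Flg2 with Flg2, -0.38 to 0.057 for Flg2 with Hrnr, -0.45 to 0.44 for Flg with Flg, -0.084 to 0.059 for the Flg promoter, -0.43 to 0.49 for E1, -1.06 to 0.15 for E2 and E3, -0.11 to 0.74 for E4 to E7, -1.47 to 0.17 for E8, -0.29 to 1.36 for E12 and -1.03 to 0.24 for E15. Called contacts numbered 47 in keratinocytes at q under 0.01 and 118 at q under 0.1, with 1 common contact at the former and 42 specific to keratinocytes at the latter. When a cell type is left with 1 library, contacts called in it number 480 to 621 in keratinocytes and 403 to 702 in thymocytes. Without 1 library, called contacts ranged from 78 to 621 in keratinocytes and from 97 to 702 in thymocytes, specific contacts from 25 to 220 and from 49 to 423, and common ones from 10 to 30. The lowest crossing position lay at 180, 150 and 150 kb in keratinocyte library 1 and thymocyte libraries 1 and 2 within 100 kb, and at 0, 30 and 30 kb within 250 kb. Contacts listed in few libraries, 2 libraries per cell type and unknown read depth limit all values.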
